A study of Homo sapiens with 36 samples.

Results

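The comparison sets HK-2 cells given the high dose of a compound labelled Ota for 24 h against their vehicle controls at 24 h. It rests on 6 of the 36 arrays of the series, 3 per group, chosen by the group named in the sample titles, and 11029 of the 19775 genes on the array were bright enough to be tested. HK-2 is an immortalized line of human renal proximal tubular epithelial cells. All cultures, controls included, grew without serum in a medium supplemented with EGF, hydrocortisone, insulin, transferrin and selenite, were seeded 24 h before treatment and were treated near confluence. The treated cells received Ota at the high dose and the controls an appropriate amount of the vehicle. The other groups used below are Ota at the low dose for 24 h, Ota at the high dose for 72 h with its own controls at 72 h, and a second compound labelled Aa at its high dose for 24 h with its own controls. The labels spell out neither compound name and give no concentrations, so the doses of Ota and Aa are not matched. The replicates are labelled as biological replicates of this 1 cell line.

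Proximal tubule cells reabsorb most of what the kidney filters and take up and export many foreign compounds. They are rich in mitochondria and depend on oxidative metabolism. Injured tubule cells lose transport proteins, stop or restart division and switch on stress programmes such as the p53 response, the integrated stress response through ATF4, and the unfolded protein response of the endoplasmic reticulum (ER). An array reports an RNA level relative to the rest of the RNA hybridised, so a rise can come from more of that RNA or from less of the others, and fewer cells and less RNA per cell cannot be told apart.

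Signal was lost over much of the range of the treated arrays. The median log2 value of the tested genes was 8.29, 8.22 and 8.33 on the 3 control arrays and 7.69, 7.46 and 7.78 on the 3 high dose arrays. The groups did not overlap, and high dose replicate 2 was lowest. Of the percentiles read the 25th dropped most, from 6.55 ± 0.08 (SD, n = 3) to 5.55 ± 0.16. The 10th percentile went from 4.71 ± 0.07 to 4.07 ± 0.14. The top of the range stayed where it was, with 90th percentiles of 11.32 ± 0.03 and 11.29 ± 0.01 and 99th percentiles of 13.84 ± 0.04 and 13.92 ± 0.02. The 9 hybridisation control sets, which read bacterial transcripts added to the labelled sample, moved the other way, from 10.43 ± 0.21 to 11.40 ± 0.11. A sign of RNA quality, the 3′ set of the actin gene ACTB minus its 5′ set, was 0.98, 0.90 and 1.36 in the controls and 1.23, 0.98 and 1.26 at the high dose, so the groups overlapped. Correlations between the high dose replicates were 0.950 to 0.981 over the tested genes.

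**Figure D1:**
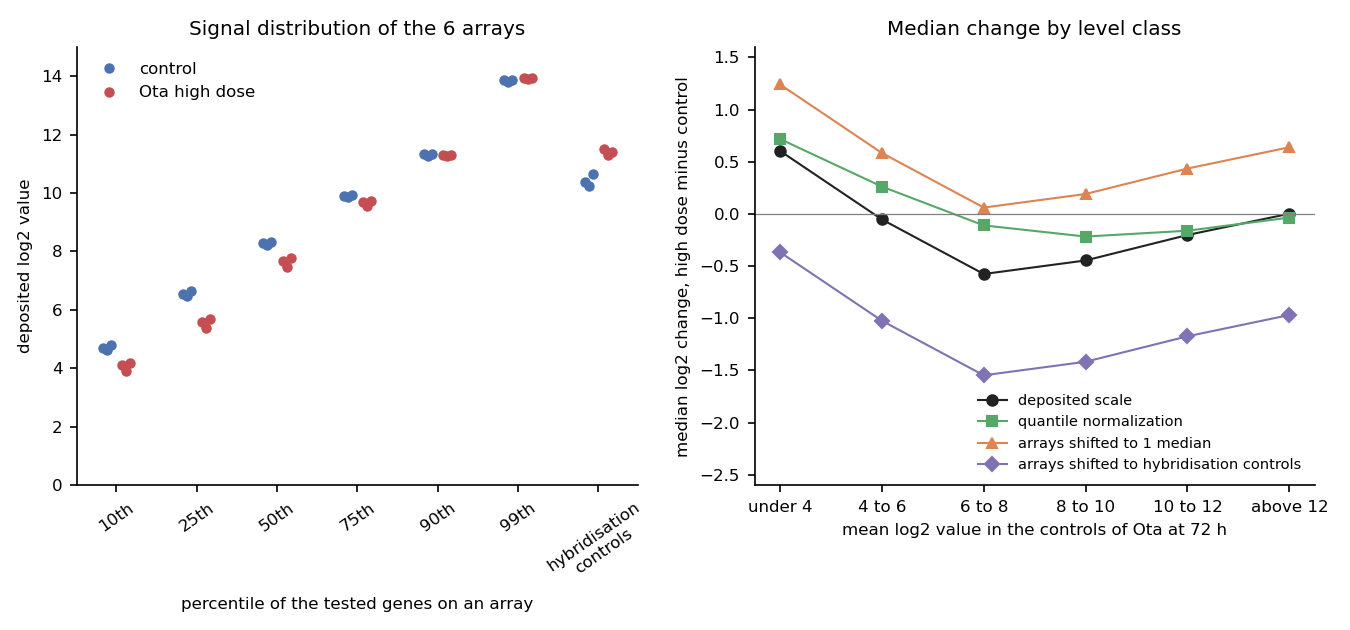
Left: percentiles of the deposited log2 value over the 11029 tested genes, and the mean of the 9 hybridisation control sets, with 1 point per array. Right: median log2 change of genes binned by their mean in the controls of Ota at 72 h, in 4 scales. The 25th percentile fell from 6.55 to 5.55 while the 90th stayed near 11.3, and the genes between 6 and 8 had the lowest median change in the deposited, shifted and spike scales.

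Totals over all genes and most list counts therefore draw on more than 1 scale. Changes of single genes are in the deposited scale unless another is named. The deposited scale is the authors' own. In the shifted scale every array was moved to the same median over the tested genes, which raised the high dose arrays against the controls. In the quantile scale all arrays were given the same distribution. In the spike scale arrays were moved to equal hybridisation controls, which lowered the high dose arrays. The files do not settle which scale is right. A gene was called at an adjusted p under 0.05 in limma, and "in 3 scales" below means called in the same direction in the deposited, shifted and quantile scales. A rise in 3 scales need not be called in the spike scale.

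In the deposited scale 7058 genes were called (64%), of which 2379 were higher (21.6%) and 4679 lower (42.4%). At least 2-fold changes were called for 901 higher and 3258 lower genes, and the median change was -0.26. The direction of the balance turned with the scale. Among the called genes 33.7% were higher in the deposited scale, 63.8% in the shifted, 45.1% in the quantile and 4.63% in the spike scale. The shifted scale called 73.8% of the tested genes, 5193 higher (47.1%) and 2943 lower (26.7%). The quantile scale called 66.1%, 3287 higher (29.8%) and 3999 lower (36.3%). The spike scale called 82.2%, 420 higher (3.81%) and 8646 lower (78.4%). Of the 4679 lower calls, 2943 were lower in the shifted scale too, 1698 lost their call there and 38 were called higher. In 3 scales 2352 genes were higher (21.3% of tested) and 2943 lower (26.7%). Of these, 900 and 2918 changed at least 2-fold in the deposited scale. The 2943 falls were also called in the spike scale, and 420 of the rises were. The 3 treated arrays lay wholly above the controls for 2541 genes (23%) and wholly below for 4631 (42%), together 65% of those tested. List counts in 3 scales below are to be read against the shares of all tested genes, 21.3% higher and 26.7% lower.

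The loss was not even across expression levels. Genes were binned by their mean in the 72 h controls, which are no part of the comparison. Genes between 6 and 8 fell most, with a median change of -0.58, and 1001 of 2867 were lower in 3 scales against 530 higher. Genes between 8 and 10 had a median of -0.45 (1116 lower, 682 higher, of 3395). Genes above 12 had a median of 0.00 in the deposited scale and 0.64 in the shifted scale, and 89 of 637 were lower in 3 scales against 125 higher. Genes under 4 in the 72 h controls had a median of 0.60. However, only 357 of those 508 would have passed the filter on low values without the high dose arrays of 24 h. Their balance was thus partly set by the filter. The high dose arrays of 72 h stayed in this count, so genes raised there could still pass. The brightest genes thus kept their median in the deposited scale while that of the middle of the range sank. Many single genes fell far more than any of these medians, to the bottom of the scale.

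Several genes that lay at the bottom of the scale in the controls were well measured after treatment. FGF18, a secreted fibroblast growth factor, read 3.24, 3.03 and 3.16 in the controls and 11.84, 11.42 and 11.59 at the high dose. The controls lay under 4, where values have no dependable order, so the rise was at least 196-fold (adjusted p = 1.93e-09, limma with Benjamini-Hochberg adjustment). AVIL, an actin-binding protein of the villin family, read 3.67, 3.67 and 3.67 against 10.07, 9.75 and 10.15, a rise of at least 63.6-fold. MSH4, a MutS homologue of meiotic recombination, read 2.41, 2.43 and 2.44 against 9.57, 9.19 and 9.18 (at least 39.8-fold). FRZB, a secreted antagonist of Wnt ligands, rose at least 41.5-fold, AOC3, a membrane amine oxidase, at least 28.2-fold, and RAB30, a small GTPase of the Golgi, at least 16.4-fold. Genes with weak but measurable control levels rose too. STC2, a secreted glycoprotein induced by ER and amino acid stress, read 4.58, 4.07 and 4.59 against 9.30, 8.03 and 9.38, a rise of 4.49 ± 0.38 (SE) on the log2 scale. The others among the 12 largest rises were WIPF3 (4.47 ± 0.36), the germ cell gene GCNA (4.13 ± 0.21), the nuclear pore membrane protein POM121 (4.02 ± 0.19), whose close copies can share its probes, and the histone genes H2BC4 and H2AC6. All 12 rises were called in the 4 scales and were separated from the controls on every array.

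The largest falls took genes of upper middle level to the bottom of the scale. TMEM37, a membrane protein, read 10.11, 10.10 and 10.20 in the controls and 2.16, 1.92 and 3.62 at the high dose, a fall of at least 70.3-fold (adjusted p = 1.26e-09, limma). PCDH7, a protocadherin of cell adhesion, read 10.39, 9.78 and 10.18 against 3.87, 3.69 and 3.86 (at least 69.3-fold), although 1 of its 3 other probe sets was called higher. RRP36, a factor of ribosomal RNA processing, read 9.91, 9.87 and 10.06 against 3.67, 3.67 and 3.67 (at least 61.8-fold). CTPS1, the CTP synthase of pyrimidine synthesis, read 10.36, 10.50 and 10.35 against 3.11, 3.17 and 5.88, a fall of 6.35 on the log2 scale. All its treated arrays lay below the controls, but replicate 3 stood well above the other two. The same spread was seen in TMEM139 (2.33, 2.18 and 4.34 at the high dose) and CARD10, a scaffold of NF-kB signalling (3.14, 2.49 and 5.59). METTL23, a methyltransferase-like gene, fell by 6.17, the deubiquitinase USP25 by 5.77, NABP1, which binds single-stranded DNA, by 5.54, and HDHD2 by 5.54. NRG1, the EGF family ligand neuregulin, fell by 5.84, with 1 of its 4 other probe sets called higher. NBPF20 fell at least 50.9-fold, but the near-identical NBPF genes can share its signal. Over all tested genes, 418 of the genes called lower had all 3 treated arrays at or under 4, and 237 of those called higher had all 3 controls there.

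**Figure D2:**
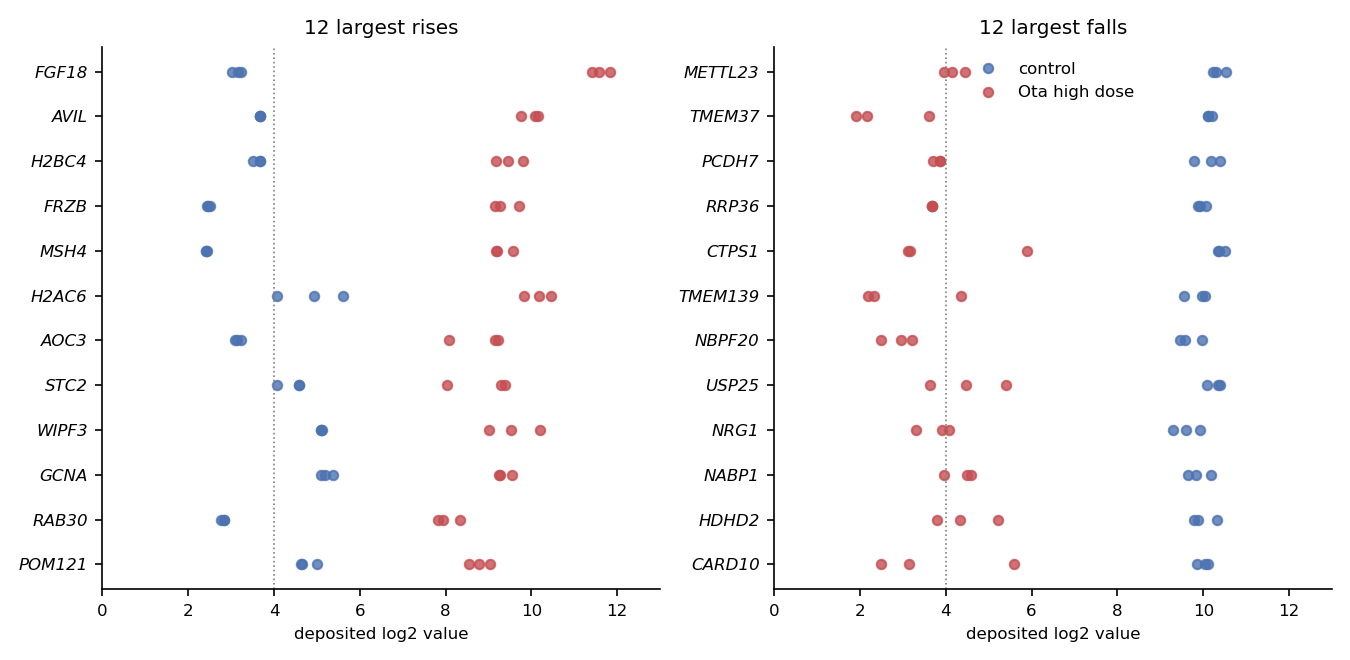
Deposited log2 values of the 12 largest rises (left) and 12 largest falls (right) on each control and high dose array, 1 point per array, with the dotted line at 4. Treated and control arrays were separated for all 24 genes, and the high dose arrays of CTPS1, TMEM139 and CARD10 spread from under 4 to 5.88, 4.34 and 5.59.

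Replication-dependent histone genes, which package newly made DNA and whose mRNAs normally lack a poly(A) tail, rose as a class. Of 35 members on the array 17 were tested and 15 were higher in 3 scales, with none lower and a median change of 2.92 against -0.26 over all tested genes. In the spike scale the median was 1.94. In 9 of them all controls lay at or under 4. Without the high dose arrays of 24 h, 16 would have passed the filter. The high dose arrays of 72 h stayed in that count, so it is not free of the treatment. H2BC4 read 3.51, 3.66 and 3.68 in the controls and 9.45, 9.17 and 9.82 at the high dose, a rise of at least 44.6-fold. H2AC6 read 4.93, 4.06 and 5.61 against 10.18, 9.82 and 10.46, a rise of 5.28 ± 0.28. Probes of histone genes with nearly the same sequence may read each other's mRNA, which leaves the value of any 1 member uncertain.

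H2BC4 and H2AC6 are divergent neighbours in the histone cluster of chromosome 6, and their start sites are separated by only the 245 bases shown here because both genes of this shared promoter rose together. The stretch is chr6:26123927-26124171 in RefSeq's GRCh38.p14, plus strand, with H2BC4 starting at 26123926 to its left on the minus strand and H2AC6 at 26124172 to its right. Capitals mark matches on either strand to the CCAAT box (CCAAT, 3 matches) and to the octamer of histone H2B promoters (ATTTGCAT, 1 match).
H2BC4 to H2AC6: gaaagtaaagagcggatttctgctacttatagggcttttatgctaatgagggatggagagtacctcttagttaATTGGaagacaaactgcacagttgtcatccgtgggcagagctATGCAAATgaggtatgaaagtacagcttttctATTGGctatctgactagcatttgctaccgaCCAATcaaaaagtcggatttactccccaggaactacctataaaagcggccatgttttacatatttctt
RefSeq promoters, the 250 bases before a start, were available for all 17 tested histone genes. The octamer lay in those of 9 of the 15 genes higher in 3 scales and in 1.63% of 35116 promoters. A CCAAT box lay in 13 of the 15 and in both of the others, and in 32.0% of promoters and 42.3% of those of tested genes. For the octamer the share among tested genes was 1.64%. A match is a description of the sequence and says nothing of which factor was bound.

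Chaperones, folding enzymes and regulators of the ER unfolded protein response were higher more often than lower, except in the spike scale (1 higher, 11 lower). That scale called 3.81% of all tested genes higher and 78.4% lower. Of 26 tested members, 13 were higher in 3 scales and 1 lower. The median was 0.47 in the deposited and 1.11 in the shifted scale, against 0.38 over all genes in the latter. In the spike scale it was -0.50, against -1.23 over all genes. ERO1B, an oxidase that drives disulfide bond formation, read 5.10, 4.08 and 4.79 in the controls and 6.46, 7.46 and 6.84 at the high dose (2.26 ± 0.31). DNAJC3, a co-chaperone that inhibits the kinase PERK, rose by 1.13 ± 0.29. XBP1, the transcription factor of the pathway, read 8.95, 8.64 and 9.26 against 7.48, 6.57 and 7.41 and fell by 1.80 on the log2 scale in its representative probe set, while its 1 other set was called higher. HSPA5, the main ER chaperone BiP, read 12.97, 12.42 and 12.74 against 11.61, 11.56 and 11.76, a fall of 1.06 in the deposited scale that was not called in the shifted scale (-0.43) and that its other probe set opposed. The 2 members that fell thus depended on the probe set read.

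The ER stress response element is the sequence through which this response acts on many of these promoters. Its letters, CCAAT and CCACG with any 9 bases between them, on either strand, lay in 26 of 35116 promoters (0.074%) and in 8 of the 23 tested list members with a promoter, 5 of them among the 10 higher in 3 scales. The element is shown in capitals with its flanks for 2 genes that rose, CALR (0.73 ± 0.28, but -0.24 and not called in the spike scale) and ERO1B, and for the 2 that fell, because both kinds carry it. The stretches are chr19:12938364-12938422 (plus strand), chr1:236282163-236282208, chr9:125241371-125241429 and chr22:28800583-28800641 (minus strand), in the order printed, in RefSeq's GRCh38.p14.
CALR: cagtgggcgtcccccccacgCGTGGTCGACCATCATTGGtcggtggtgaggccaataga
ERO1B: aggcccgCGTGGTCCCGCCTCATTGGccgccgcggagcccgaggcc
HSPA5: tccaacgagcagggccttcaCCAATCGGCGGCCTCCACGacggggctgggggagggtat
XBP1: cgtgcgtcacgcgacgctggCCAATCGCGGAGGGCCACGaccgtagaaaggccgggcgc
In CALR and ERO1B the element stood in reverse, 207 and 225 bases before the start, and in HSPA5 and XBP1 forward, 48 and 34 bases before it.

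Targets of ATF4 and of amino acid stress moved in both directions in shares near those of all tested genes, with 7 of 33 higher (21.2%) and 9 lower (27.3%) in 3 scales and a median of -0.34. ATF3, a stress-induced transcription factor, read 4.03, 3.38 and 5.11 in the controls and 8.02, 8.34 and 8.16 at the high dose, a rise of 4.01 ± 0.40. With STC2 it was among the strongest rises of the list. DDIT4, an inhibitor of mTORC1, was very high in the controls (13.05, 13.12 and 12.83) and read 8.93, 8.65 and 9.04 at the high dose, a fall of 4.13. SLC1A4, a neutral amino acid transporter, fell by 3.06. DDIT3, the transcription factor CHOP, read 7.62, 7.72 and 7.45 against 6.31, 5.12 and 7.70, so the groups overlapped. Its change of -1.21 passed the test in the deposited scale (adjusted p = 0.0291) but not in the shifted scale. The call was also lost without control replicate 1 (adjusted p = 0.063), control replicate 2 (0.072), high dose replicate 1 (0.066) or high dose replicate 2 (0.18). A fit of the 6 arrays alone did not call DDIT3 either (adjusted p = 0.136, limma).

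Cytosolic aminoacyl-tRNA synthetases, which charge tRNAs with amino acids, included 5 of 17 higher and 5 lower in 3 scales (29.4% each), against 21.3% and 26.7% of all tested genes. WARS1 rose by 1.37 ± 0.22 and GARS1 by 0.66 ± 0.15, although the change of GARS1 in the spike scale was -0.31 and not called. FARSA, the catalytic subunit of phenylalanyl-tRNA synthetase, read 9.03, 8.65 and 8.55 in the controls and 5.18, 4.60 and 5.41 at the high dose, a fall of 3.68. FARSB, its other subunit, read 10.77, 10.98 and 10.85 against 9.57, 10.16 and 9.79, a fall of 1.03, though 1 of its 2 other probe sets was called higher and the mean of its sets changed by 0.69 (adjusted p = 0.0536, limma). Both subunits were lower in their representative sets, without overlap of the groups. HARS1 fell by 2.24.

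Of 16 tested heat shock genes, a list of cytosolic and mitochondrial chaperones, their partners and heat shock factors, 1 was higher and 4 lower in 3 scales. CHORDC1, a partner of HSP90, fell by 3.34 and DNAJB1 by 2.59. Of 27 proteasome subunits 3 were higher and 3 lower (11.1% each). Of 23 NRF2 targets, the antioxidant genes, 5 were higher and 3 lower, with a median of -0.11. ME1 (malic enzyme) read 10.64, 10.32 and 10.79 in the controls and 11.48, 11.44 and 11.05 at the high dose, a rise of 0.74 ± 0.19 in 3 scales that was not called in the spike scale (-0.23). NQO1 read 10.50, 10.32 and 10.36 against 10.58, 10.86 and 10.23 and was not called. HMOX1, heme oxygenase, read 7.60, 7.36 and 7.25 against 7.02, 5.16 and 6.93. Its change of -1.04 was called in the deposited scale (adjusted p = 0.0244), not in the shifted scale, and not without high dose replicate 2 (adjusted p = 0.13) or control replicate 1 (0.074). A fit of the 6 arrays alone did not call HMOX1 (adjusted p = 0.125, limma). Of 8 metallothionein and zinc genes 3 were higher in 3 scales. MTF1, the zinc-sensing factor that drives metallothioneins, rose by 1.86 ± 0.17, whereas MT1E, already at 13.41, 13.56 and 13.41 in the controls, read 12.54, 12.68 and 12.55, a fall in the deposited scale that was not called in the shifted scale (-0.23).

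The balance of p53 targets depended on the scale. Of 26 tested members 3 were higher and 16 lower in the deposited scale and 10 higher and 10 lower in the shifted scale. In 3 scales 3 were higher (11.5%) and 10 lower (38.5%), with a median of -0.88 in the deposited and -0.25 in the shifted scale, below that of all tested genes in both. CDKN1A, the p53-induced inhibitor of cyclin-dependent kinases, read 8.79, 8.21 and 8.53 in the controls and 9.17, 8.88 and 9.44 at the high dose. It rose by 0.65 ± 0.20 in 3 scales, but in the spike scale the change was -0.32 and not called. MDM2, the ligase that degrades p53, read 8.98, 8.45 and 8.61 against 6.85, 5.11 and 6.60 and fell by 2.49. TNFRSF10A, a death receptor, rose by 1.28 ± 0.22, with 1 of its 2 other probe sets called lower. POLH, a translesion polymerase, read 7.38, 7.09 and 7.34 against 3.48, 3.18 and 3.92, a fall of at least 9.66-fold, and ZMAT3 fell by 3.04. In the BCL2 family of apoptosis regulators 4 of 12 tested members were lower in 3 scales and 1 higher. BOK, a pro-apoptotic member, read 7.94, 7.60 and 7.56 against 3.28, 2.80 and 2.76 and fell, and BCL2L2, a pro-survival member, fell at least 5.94-fold, so members of opposite roles fell.

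Genes of DNA replication and mitosis were lower more often than higher, in the shifted scale by a smaller margin (13 higher and 23 lower for replication, 10 and 18 for mitosis). Of 42 replication genes 2 were higher and 23 lower in 3 scales, with medians of -1.23 in the deposited and -0.60 in the shifted scale. RFC4, a subunit of the clamp loader, read 11.41, 11.57 and 11.77 in the controls and 7.60, 8.19 and 7.75 at the high dose, a fall of 3.74. RFC3, of the same complex, fell by 3.58. Of 44 mitotic genes 28 were lower in the deposited scale, 18 of them in 3 scales, and 3 were higher, with medians of -0.75 in the deposited and -0.11 in the shifted scale. MKI67, a proliferation marker, read 11.28, 11.36 and 11.12 against 7.61, 7.84 and 8.32, a fall of 3.33. CDC25B, a phosphatase that activates CDK1, fell by 4.34 and SPC25, of the kinetochore, by 5.18. The kinase TTK and the scaffold ANLN went the other way, with TTK at 10.16, 10.11 and 10.48 in the controls and 11.01, 10.89 and 11.46 at the high dose. TTK rose by 0.87 ± 0.18 and ANLN by 0.75 ± 0.18 in 3 scales, but not in the spike scale, where neither was called (-0.10 and -0.22). DNA repair genes included 5 higher and 11 lower of 32 (15.6% and 34.4%). XPA, the damage verification factor of nucleotide excision repair, fell by 4.74 and the checkpoint kinase CHEK1 by 4.60, while XRCC2 and ERCC4 rose by 1.53 ± 0.23 and 1.46 ± 0.26.

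**Figure D3:**
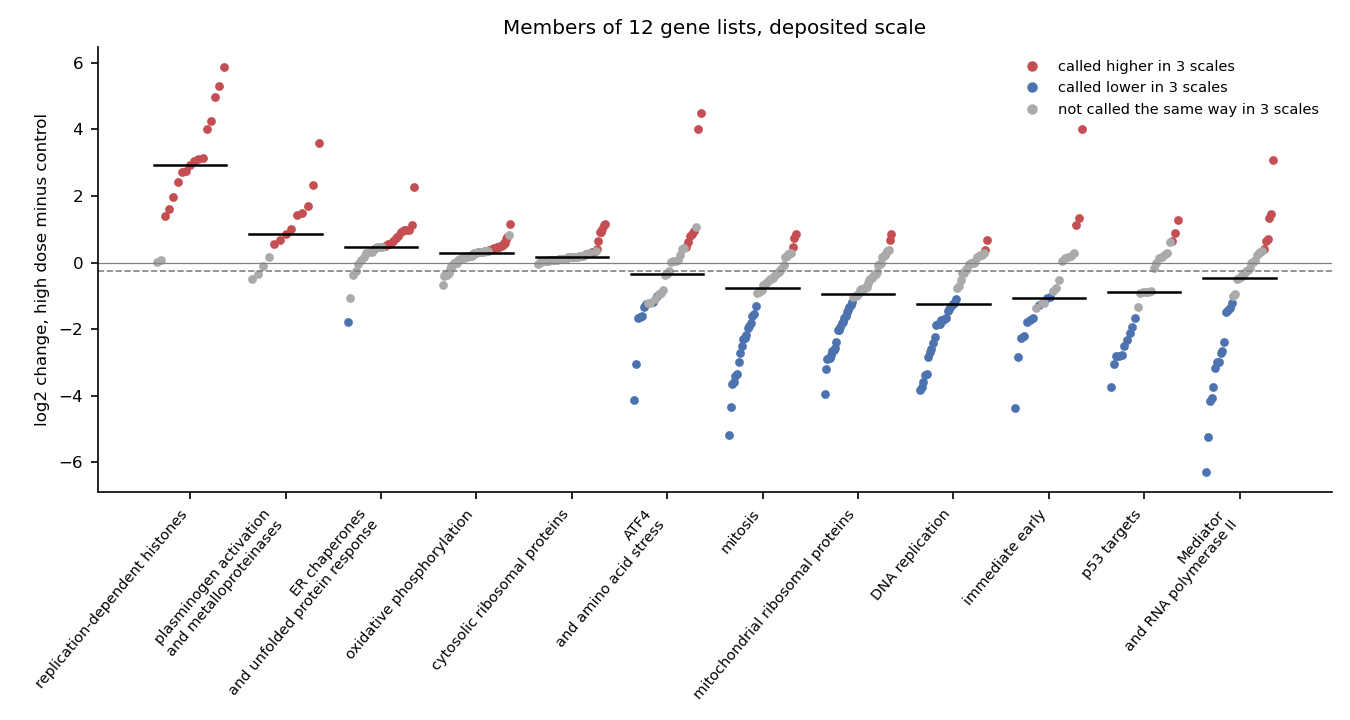
Log2 change in the deposited scale of every tested member of 12 gene lists, 1 point per gene, ordered by change within a list. Colour gives the call in 3 scales, black lines mark list medians and the dashed line the median of all tested genes (-0.26). Nearly all histone genes rose, with a median of 2.92, while replication, mitochondrial ribosome and Mediator genes had long tails below.

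Mitochondrial genes divided by role. Of 57 tested oxidative phosphorylation subunits, which are bright, 22 were higher in 3 scales and none lower. Their medians were 0.30 and 0.94 in the deposited and shifted scales. In the spike scale the median was -0.67, against -1.23 over all tested genes. ATP5MG, of ATP synthase, read 11.14, 10.77 and 11.32 in the controls and 12.17, 12.12 and 12.37 at the high dose, a rise of 1.14 ± 0.15. SDHA, of complex II, fell by 0.67 in the deposited scale, but the shifted change was -0.04. Of 52 mitochondrial ribosomal proteins, of lower level, 39 were called lower in the deposited scale and 23 in 3 scales, 2 were higher, and the medians were -0.96 and -0.32. MRPL16 read 8.74, 8.69 and 8.99 against 5.05, 4.19 and 5.37, a fall of 3.94, and MRPL27 fell by 3.21. Taken relative to the median of each gene's level class, the medians of the 2 lists were 0.32 and -0.60. No gene of either list rose in all 4 scales, as 3.81% of all tested genes did. By level class, 16 of 1949 genes between 10 and 12 did, and 0 of 637 above 12.

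Cytosolic ribosomal proteins, among the brightest mRNAs, depended on the scale. Of 50 tested members 12 were higher in 3 scales and none lower. All 50 were higher in the shifted scale, where 47.1% of all tested genes were. The median was 0.16 in the deposited, 0.80 in the shifted and -0.81 in the spike scale. Over all tested genes these medians were -0.26, 0.38 and -1.23. RPL27A rose by 1.15 ± 0.18 and RPL38 by 1.12 ± 0.21. Ribosome biogenesis factors included 3 higher and 9 lower of 29. POLR1C, a subunit shared by RNA polymerases I and III, fell by 3.33 and UTP15, of the small subunit processome, by 3.24, whereas LYAR, a nucleolar protein, rose by 1.55 ± 0.17. Of 36 translation factors 9 were higher and 9 lower. EIF2B4, of the exchange factor for eIF2, fell by 3.38, and EIF3J by 3.25. EEF1A1 rose by 2.28 ± 0.14 in its representative set, whose level of 9.66, 9.11 and 9.44 in the controls is low for this abundant elongation factor.

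Some Mediator subunits fell steeply and a few rose. Of 38 Mediator and RNA polymerase II genes 6 were higher and 15 lower in 3 scales. MED21, a Mediator subunit needed for the joining of its middle module, read 9.02, 8.59 and 9.28 in the controls and 2.80, 2.15 and 3.06 at the high dose, a fall of at least 31.2-fold. MED20 fell at least 16.8-fold. MED26, the subunit that recruits elongation factors, read 9.16, 9.12 and 9.29 against 12.40, 12.14 and 12.27, a rise of 3.08 ± 0.18, and MED30 rose by 1.46 ± 0.18. Of 41 splicing factors 7 were higher (17.1%) and 8 lower (19.5%), with SRSF7 up by 1.05 ± 0.18. PRPF3, of the spliceosome, fell by 3.54. SRSF1 read 13.11, 12.83 and 13.13 in the controls against 10.18, 10.07 and 10.35 and fell by 2.83. Of 28 nuclear pore genes 5 were higher (17.9%), among them RAE1 (1.44 ± 0.15), and 7 lower (25%), among them NUP85, which fell by 5.49.

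Of 45 chromatin regulators 15 were higher and 8 lower in 3 scales. ARID1B, of the SWI/SNF remodelling complex, read 6.53, 6.65 and 6.80 in the controls and 10.86, 10.90 and 10.08 at the high dose, a rise of 3.96 ± 0.24, although 1 of its 4 other sets was called lower. SUZ12, of the Polycomb complex PRC2, rose by 1.37 ± 0.11. DNMT3A, a DNA methyltransferase, fell by 4.04. Zinc finger genes named ZNF, a list added after the values were seen, held 64 higher and 92 lower of 332, shares of 19.3% and 27.7% that lay near those of all tested genes. Very long genes, a list partly drawn from genes named in earlier results of these data, held 9 higher and 9 lower of 44, with a median equal to that of all tested genes to within 0.01. PRKCE, a protein kinase C gene, rose by 2.25 ± 0.36, and ANK3 and VPS13B fell by 3.22 and 3.27.

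Of 23 tested genes of nucleotide synthesis 3 were higher and 9 lower, and the steepest falls were in pyrimidine synthesis. Beside CTPS1, UMPS, which makes UMP, read 10.04, 10.01 and 9.84 in the controls and 5.46, 3.04 and 6.38 at the high dose, a fall of 5.00. APRT and PPAT of purine salvage and synthesis rose by 0.92 ± 0.25 and 0.76 ± 0.17, but were not called in the spike scale (-0.05 and -0.21). Of 19 cholesterol synthesis genes 2 were higher (10.5%) and 6 lower (31.6%), with NSDHL down by 2.71. IDI1 rose by 2.07 ± 0.40 in its representative set, and 2 of its 3 other sets were called lower. Of 35 glycolysis and hypoxia genes 4 were higher and 3 lower. ADM, adrenomedullin, read 5.33, 5.75 and 5.56 against 8.25, 7.80 and 8.09 and rose, as did ALDOC, an aldolase that lay under 4 in the controls, whereas ENO2 and HILPDA fell by 1.32 and 1.10, so hypoxia-inducible genes went both ways. Among 7 aryl hydrocarbon receptor genes the repressor AHRR rose at least 3.11-fold from 2.27, 2.27 and 2.28 to 6.50, 5.15 and 5.25 and passed the filter on low values only through those arrays, and the target CYP1B1 and the partner ARNT fell by 2.11 and 2.00. Among 7 arrestin-domain genes and their regulators ARRDC4 rose by 2.75 ± 0.34 and MLX fell by 3.81. TXNIP itself averaged 10.21 ± 0.15 (SD, n = 3) against 11.13 ± 0.11 without overlap and was not called (adjusted p = 0.076, limma), but it was when the 6 arrays were fitted alone (adjusted p = 0.0031).

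Signalling genes were mixed. Of 24 immediate early genes 3 were higher and 10 lower in 3 scales, with medians of -1.05 and -0.41. Beside ATF3, KLF10 rose by 1.33 ± 0.25. JUND, an AP-1 subunit, read 12.04, 11.95 and 12.16 in the controls and 7.51, 6.78 and 8.79 at the high dose, a fall of 4.36, and FOSL2, another, fell by 2.84. Of 19 cytokines and NF-kB targets 4 were higher and 2 lower. TNFAIP3, a feedback inhibitor of NF-kB, read 5.41, 5.31 and 6.11 against 8.22, 8.39 and 8.07, a rise of 2.62 ± 0.33, and CSF1 rose by 1.40 ± 0.31. CCL2, a monocyte chemokine, fell by 2.46. In the EGF family 4 of 10 tested members were higher and 2 lower: the ligand HBEGF rose by 1.65 ± 0.34 and the feedback inhibitor ERRFI1 by 1.10 ± 0.17, and beside NRG1 the receptor ERBB2 fell by 3.05. Of 21 interferon-stimulated genes 4 were higher and 6 lower (19% and 28.6%), near the shares of all tested genes (21.3% and 26.7%). IFI35 fell at least 9.10-fold and PSMB9 by 3.15.

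Most tested genes of pericellular proteolysis rose. Of 13 plasminogen activation and metalloproteinase genes 9 were higher in 3 scales and none lower, with medians of 0.87 and 1.50. In the spike scale the median was -0.11, against -1.23 over all tested genes. MMP1, a collagenase, read 5.88, 7.43 and 5.37 in the controls and 9.54, 10.80 and 9.12 at the high dose, a rise of 3.59 ± 0.63. PLAUR, the urokinase receptor, read 6.11, 6.12 and 6.46 against 8.61, 8.58 and 8.53 (2.34 ± 0.16). Of 29 genes of TGF-beta, matrix and mesenchymal character 9 were higher and 4 lower. TAGLN, an actin-binding protein, rose at least 6.17-fold, while CCN2 and COL1A1, TGF-beta targets, fell by 2.19 and 2.07. Of 27 autophagy and lysosome genes 9 were higher and 2 lower. MAP1LC3B, of the autophagosome membrane, rose by 1.13 ± 0.16, and WIPI1 and ATG7, of autophagosome formation, fell by 3.13 and 2.16.

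Epithelial character was only in part that of a proximal tubule before treatment. Of 27 proximal tubule genes on the array 18 lay under 4 on all 6 arrays, among them the endocytic receptors LRP2 and CUBN, the water channel AQP1 and the phosphate transporter SLC34A1. Of the 8 that were tested 4 were lower in 3 scales and none higher. PAX8, a renal lineage transcription factor, read 10.41, 10.42 and 10.46 in the controls and 7.63, 7.96 and 8.18 at the high dose, a fall of 2.51. SLC4A4, the basolateral bicarbonate transporter, read 12.04, 12.03 and 12.06 against 9.94, 9.57 and 10.32, a fall of 2.10. Of 22 junction and keratin genes 4 were higher, such as DSG2 (0.86 ± 0.12, but -0.11 and not called in the spike scale), and 6 lower. CLDN1, a tight junction protein, read 14.54, 14.42 and 14.63 against 12.08, 11.80 and 12.66. CLDN1 fell by 2.35 and OCLN, another tight junction protein, by 2.68. Of 21 injury markers 5 were higher (23.8%) and 4 lower (19%). CD44, a hyaluronan receptor of injured tubules, rose by 1.71 ± 0.19 and VCAM1 fell by 3.84. HAVCR1, the injury marker KIM-1, read 10.78, 10.71 and 10.80 against 10.39, 10.38 and 10.24 and was not called (adjusted p = 0.301, limma, but 0.035 in a fit of the 6 arrays alone). Of 21 transporters 5 were higher and 5 lower (23.8% each). SLC22A4, an organic cation and ergothioneine transporter, rose by 2.51 ± 0.26, and SLC29A1, a nucleoside transporter, fell by 3.13.

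Markers of other cells were scanned beside these lists. Of 6 leukocyte markers on the array 4, among them PTPRC, CD14, LYZ and CD3E, lay under 4 on all 6 arrays. FCER1G rose at least 5.55-fold and ITGAM at least 1.95-fold. Both lay under 4 in all controls, and ITGAM passed the filter on low values only through the high dose arrays. The summed level of the list was 5.04 to 5.06 in the controls and 7.02 to 7.41 at the high dose. Of 4 tested fibroblast markers S100A4 rose by 1.05 ± 0.24 and LUM by 0.62 ± 0.23, and COL1A1 fell. LUM lost its call without control replicate 2 (adjusted p = 0.15) or high dose replicate 1 (0.12), and in a fit of the 6 arrays alone (0.098, limma). Of 4 tested distal nephron markers AQP3 rose by 1.05 ± 0.25 and SCNN1A fell by 1.28, with its 1 other probe set called higher. AQP3 lost its call in a fit of all 36 arrays (adjusted p = 0.056, limma). The mean over the probe sets of SCNN1A changed by -0.09 and was not called. The single endothelial marker tested and the 2 podocyte markers were not called. The part of other cells in these results was not tested.

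**Figure D4:**
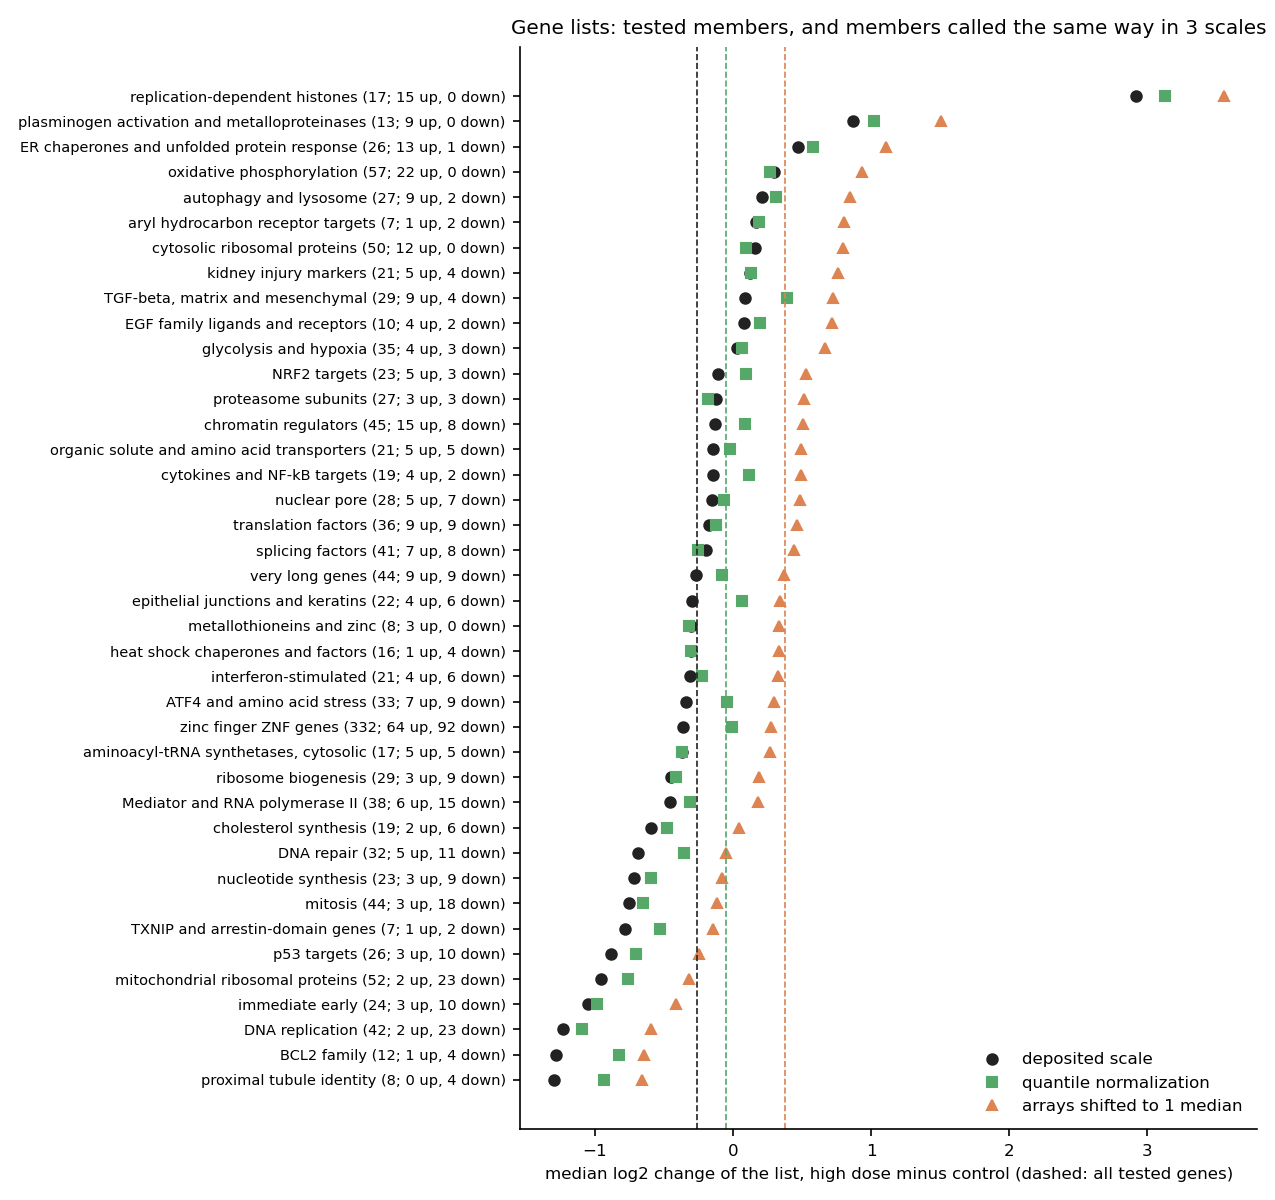
Median log2 change of each gene list in the deposited, quantile and shifted scales, with dashed lines at the medians of all tested genes (-0.26, -0.05 and 0.38). Labels give the tested members and the members called higher and lower in 3 scales, and lists near the dashed lines moved with the bulk of the genes. Marker lists of other cells are not drawn. In the deposited scale histone genes lay farthest above and proximal tubule, BCL2 family and replication genes farthest below.

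Fewer genes were called at the low dose at 24 h. Against the same controls this dose had 1619 called genes (14.7%), and its median change was -0.05. At least 2-fold changes were called for 222 higher and 533 lower genes. High and low dose differed in 6413 genes (58.1%), with 2144 higher (19.4%) and 4269 lower (38.7%) at the high dose. In the shifted scale the balance turned, with 4743 higher and 2716 lower. FGF18 averaged 3.48 ± 0.54 (SD, n = 3) at the low dose against 11.62 ± 0.21 at the high, TMEM37 9.55 ± 0.33 against 2.56 ± 0.92, and CARD10 9.91 ± 0.09 against 3.74 ± 1.64. PON1, paraoxonase, was at 2.12 ± 0.11 and 7.75 ± 0.19, and AREL1, an E3 ligase, at 8.25 ± 0.19 and 2.32 ± 0.42. Of 17 replication-dependent histones 14 were higher at the high dose, and 15 in the shifted scale. Their median difference at the high dose was 1.635 from the low dose and 2.915 from the controls. For replication genes these medians were -0.69 and -1.23, and for mitotic genes -0.75 and -0.75. Of 52 mitochondrial ribosomal proteins 34 were lower and 5 higher in the deposited scale, but 20 lower and 16 higher in the shifted scale. The hybridisation controls read 10.73 ± 0.14 at the low dose, between the controls and the high dose.

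By 72 h part of the pattern had turned. The effect of the high dose against its own controls differed between 72 h and 24 h in 5939 genes (53.8%), with 3642 higher (33%) and 2297 lower (20.8%) at 72 h. In the shifted scale the balance was 2768 higher and 3249 lower, and in the quantile scale 3164 and 2776. The 4 genes with the largest upward differences had all fallen at 24 h, which choosing genes by this difference favours. They were POLQ (a fall of at least 3.57 on the log2 scale at 24 h, where all treated arrays lay under 4, and a change of 2.87 at 72 h), NUP85 (-5.49 and 0.75), CTPS1 (-6.35 and -0.17) and CARD10 (-6.26 and -0.47). The controls themselves differed with time, POLQ standing at 7.57 ± 0.34 at 24 h and 4.59 ± 0.29 at 72 h. Control means also fell over that time in NUP85 (10.26 to 8.67), CTPS1 (10.40 to 9.11) and CARD10 (10.00 to 9.27). Mitotic genes were higher at 72 h relative to 24 h in 41 of 44 cases and lower in none, with a median difference of 1.78 against 0.20 over all genes, and replication genes in 31 of 42. Mitotic genes kept 39 of these calls in the shifted scale. ER genes differed the other way, with 18 of 26 lower and 1 higher, as did ATF4 targets with 21 of 33 lower and 3 higher and metallothionein and zinc genes with 7 of 8 lower. Such a difference also moves when the controls change with time, and their part in these list counts was not tested. The largest downward differences were in ALDH1L2 (1.05 at 24 h and -5.09 at 72 h), a mitochondrial folate enzyme whose controls rose from 4.11 ± 0.81 to 8.85 ± 0.24 over that time, GPR160 (-0.89 and -6.38), FOXP2 (0.98 and -4.38) and KDELR3 (-0.56 and -5.91), an ER retrieval receptor. The actin 3′ minus 5′ difference was 1.88 ± 0.37 at the high dose at 72 h and 1.16 ± 0.15 at 24 h, and its part in these differences was not tested.

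The change with Ota at 24 h was set against that with Aa at 24 h, each relative to its own controls, with doses that are not matched. The changes differed in 6775 of 11405 genes (59.4%), with 2129 higher (18.7%) and 4646 lower (40.7%) for Ota. In the shifted scale the split was 4974 higher and 2780 lower. Several of the largest differences rest on arrays under 4, so their changes are given with values under 4 set to 4, as bounds. ARID1B changed by 3.96 with Ota and fell by at least 2.34 with Aa. CELF2, an RNA-binding protein, changed by 3.04 with Ota and fell by at least 1.93 with Aa, BNC2 changed by 2.26 and fell by at least 3.01, and PRKCB, another protein kinase C gene, changed by 1.05 and fell by at least 3.65. AREL1 fell by at least 4.72 with Ota and changed by 0.27 with Aa. CARD10 fell by at least 5.47 and changed by 0.63, SLC22A15 fell by at least 2.14 and changed by 2.48, and TIMM23B, a near-identical copy of the mitochondrial translocase gene TIMM23, fell by at least 4.18 and changed by 1.22. Very long genes were higher with Ota than with Aa in 31 of 44 cases and lower in none, but members of that list were partly drawn from earlier results of these data, so the count is no independent evidence. Histones were higher with Ota in 14 of 18 cases and ER genes in 13 of 26. p53 targets were lower with Ota in 21 of 26 cases in the deposited scale and 13 in the shifted scale, and higher in none and 4.

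**Figure D5:**
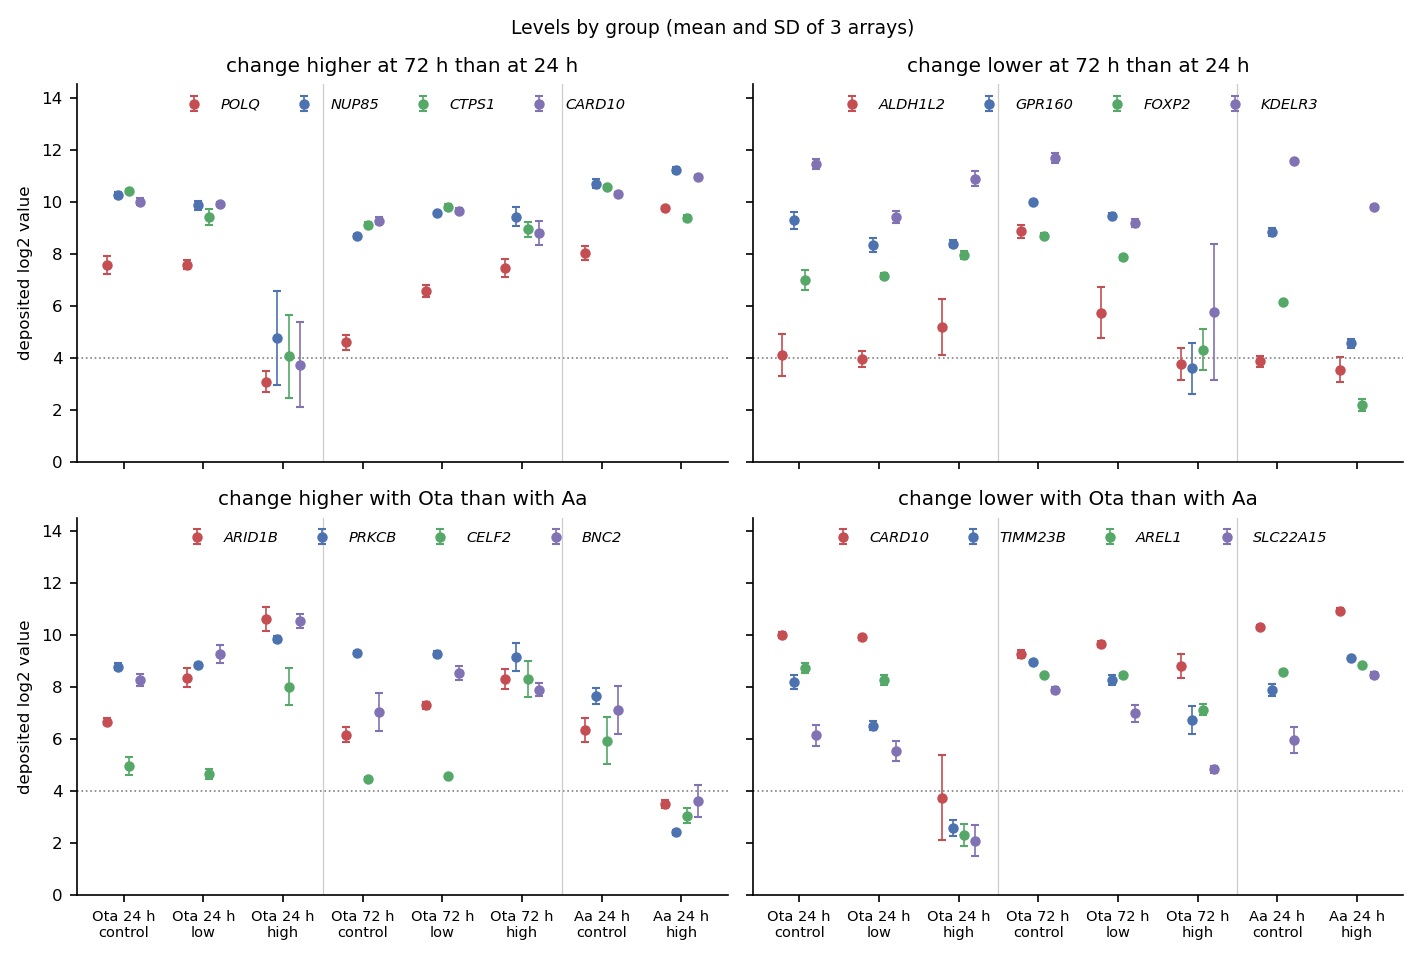
Deposited log2 value, mean and SD of 3 arrays, in 8 groups for the genes with the 4 largest differences each way between the 72 h and 24 h effects of Ota (top) and between Ota and Aa at 24 h (bottom), with the dotted line at 4. CARD10, CTPS1 and NUP85 were low in the Ota high dose group at 24 h alone of the groups drawn, and ARID1B was highest there at 10.62.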

How the data were processed

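RNA of HK-2 cells was measured on expression arrays, and the comparison used 6 of them. The values, on a log2 scale, were deposited by the authors as 1 table of the series. GCRMA is named in the submitters' processing notes, with no settings given in the sources used. This method removes a background predicted from each probe's bases, which leaves dim genes at near-constant low values. Depth does not apply to arrays, and the number of arrays limits the precision.

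Each gene was read from 1 representative probe set with 1 gene symbol in the platform annotation, and genes above 4 on at least 3 arrays of the compound were tested. limma (3.58.1, R 4.3.3) was fitted on the 18 arrays of Ota, or on all 36 for the comparison with Aa, with p-values adjusted by Benjamini-Hochberg. A bound ("at least") was given where all arrays of the dimmer group lay at or under 4, against which the brighter mean was set. Figures were drawn with matplotlib 3.10.9. Named genes were the 12 largest rises and falls with groups that did not overlap (values under 4 set to 4), the 2 largest each way in each list, the 4 largest differences each way and a fixed set of stress and injury genes; CALR was added for its promoter. The members and lists were chosen with earlier results of these data known. Replicates of the same number deviated weakly together from their group means (r = 0.11, 0.20 and 0.23, against -0.21 to 0.02 for unequal numbers). Deviations within a group cancel, so these values are not independent of each other. The labels do not say whether equal numbers pair the samples, and the main fit had no replicate block. On simulated data, 68% of 50 genes changed by 1 on the log2 scale and 94% of 50 changed by 2 were recovered, and 0.0462% of unchanged genes were called. The simulation drew independent noise with the same spread in every group, few changed genes and no shift of whole arrays. Its rates therefore do not describe this comparison. Alternatives were the scales, filters, floors, probe set means, array weights, smaller and larger fits, a replicate block and leaving out each array.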

Additional observations from a re-analysis of the deposited data

Results flagged for a closer look

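The effect of the high dose of Ota relative to its own controls differed between 72 h and 24 h, by a limma test of the difference itself, by 7.37 on the log2 scale in POLQ, 6.24 in NUP85, 6.18 in CTPS1 and 5.79 in CARD10, each higher at 72 h. It differed by -6.14 in ALDH1L2, -5.49 in GPR160, -5.36 in FOXP2 and -5.35 in KDELR3. The KDELR3 difference had the widest error of the 8 (SE 1.11). All high dose arrays of POLQ at 24 h lay under 4, and some arrays did in the other 7 genes. With values at or under 4 set to 4 the differences were 6.45 in POLQ, 5.99 in NUP85, 5.60 in CTPS1, 4.99 in CARD10, -5.55 in ALDH1L2, -4.88 in GPR160, -5.16 in FOXP2 and -4.99 in KDELR3. POLQ is the polymerase of theta-mediated end joining.

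The change with Ota at 24 h exceeded that with Aa, by the same kind of test, by 6.80 in ARID1B, 6.29 in PRKCB, 5.92 in CELF2 and 5.74 in BNC2. It lay below that with Aa by -6.89 in CARD10, -6.81 in TIMM23B, -6.68 in AREL1 and -6.54 in SLC22A15. These sizes too rest on arrays under 4, in the Aa high dose group for the first 4 genes and in the Ota high dose group for the others. With values at or under 4 set to 4 they were 6.30 in ARID1B, 4.70 in PRKCB, 4.97 in CELF2, 5.27 in BNC2, -6.10 in CARD10, -5.39 in TIMM23B, -5.00 in AREL1 and -4.63 in SLC22A15, so their order is not dependable. CARD10 was in both comparisons, and its 3 high dose arrays at 24 h read 3.14, 2.49 and 5.59, while every other group drawn averaged above 8. These genes were picked as the largest differences of all tested.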

How the results depend on the processing

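The balance of rises and falls turned with the scale. Against 2379 higher and 4679 lower genes, shifted arrays gave 5193 and 2943, and spike-shifted arrays 420 and 8646. At least 2-fold changes were 2639 higher and 2095 lower in the shifted and 263 and 6498 in the spike scale. The median change was 0.38, -0.048 and -1.23 in the shifted, quantile and spike scales, and 0.030 without a filter, where 5376 genes were higher. Leaving out 1 array gave 6511 to 7105 calls, 2088 to 2518 higher and 4387 to 4780 lower, 856 to 1035 higher and 3128 to 3425 lower by at least 2-fold, and a median of -0.30 to -0.21. With the replicate number as a block, 7211 genes were called (2453 higher, 4758 lower), and the block changed no call of the 139 genes named. Those genes gave 2497 values under alternatives, of which 2442 kept direction and call, 38 lost the call, 6 gained one and 11 reversed. Many of these genes were picked as the largest called changes, which favours keeping the call. The mean over probe sets reversed HSPA5 (1.04) and, not called, FARSB (0.69). Spike-shifted arrays turned the sign, with none called (adjusted p 0.201 to 0.874), of CDKN1A (-0.32), LUM (-0.35), GARS1 (-0.31), ME1 (-0.23), ANLN (-0.22), PPAT (-0.21), DSG2 (-0.11), TTK (-0.10) and APRT (-0.054). In the spike scale 15 more of the named genes lost their call and kept their direction. Of all tested genes 420 (3.81%) were higher in all 4 scales. None of 17 synthetases, 26 p53 targets or 10 EGF family genes was, and 1 of 26 ER genes was. These counts lie near the share of all tested genes. The cause of these turns and losses was not tested. A fit of the 6 arrays alone called 5774 genes, 1798 higher and 3976 lower. Array weights, which are counted among the alternatives, did not converge. Values at or under 4 limit falls of dim genes.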
